A study of Mus musculus with 18 samples.

Results

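Mice of one inbred strain that share an experimental group still differ from each other in renal gene expression, and this account describes that mouse-to-mouse variation. Bulk RNA sequencing had been done on the right kidneys of 18 male mice, 6 in each of 3 groups. For every gene, log2(FPKM + 0.1) in a mouse was set against the mean of that mouse's own group, and the difference is called the deviation of that gene in that mouse. FPKM counts fragments per kilobase of exon, scaled to the number of mapped fragments, and is thus a level corrected for gene length and sequencing depth. Of the 32675 genes listed, the 12145 genes with a mean of at least 1 FPKM over the 18 mice were used. The gene nearest above that limit was Angptl6, at 1.0002 FPKM, and the nearest below it was Cpne8, at 0.9996. The within-group variance pooled over the 3 groups was the measured value by which genes were selected, and most genes described below were chosen by it, so their variances and their correlations are given as descriptions without a test.

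All mice were wild type C57BL/6, labelled as 6 weeks old. Mice of the PBS group (labelled StressPbs) and of the FLX group (labelled StressFlx) had gone through chronic social defeat stress (CSDS), a daily confrontation with an aggressive CD-1 male that is used to bring about depression-like behaviour. Over the same days FLX mice received fluoxetine, a serotonin reuptake inhibitor, by daily injection, and PBS mice received an equal volume of phosphate-buffered saline. Ctrl mice were handled and not defeated, and the sources used here do not say whether they were injected. The study deleted 1 PBS mouse before its own analysis, on the ground that it differed too much from the others and expressed inflammatory factors in excess. The sources used here do not say which mouse that was, and all 6 PBS mice were kept here. The p-values below measure only the spread between these mice.

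The deposited estimated counts summed to between 72149987 and 79061296 in 14 mice and to between 48928823 and 52073640 in FLX 3, FLX 4, FLX 5 and FLX 6. Markers of kidney cell types were present. All 8 proximal tubule genes, 5 thick limb genes, 7 collecting duct genes and 5 podocyte genes of the lists used here reached a mean of 1 FPKM, and the summed level of the proximal tubule list was 715 to 1748 FPKM per mouse. Genes of tissues around the kidney that a dissection can include were low for skeletal muscle (summed 0.496 to 2.79 FPKM over 10 genes listed) and for the adrenal gland (0.572 to 3.82 FPKM over 11 genes listed). Fat genes were not low, with summed levels of 72.2 to 1934 FPKM for white fat (12 genes listed) and 88.3 to 921 for brown fat (10 genes listed). Whether this fat lay within or around the kidney was not tested.

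A kidney prepared whole holds more than nephrons. The renal sinus carries fat, the pelvis is lined by urothelium, a barrier epithelium coated with uroplakins, and the vessels hold red blood cells and leukocytes. The nephron itself has segments that differ along its length, from the proximal tubule, which reclaims most of the filtrate, to the urea-permeable collecting duct of the inner medulla. Tubule cells also respond within minutes to handling, hormones and injury by transcribing immediate early genes such as Egr1 and Klf6, and many renal genes follow the circadian clock through E-box and D-box elements of their promoters.

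Most genes varied little. The median pooled within-group SD was 0.226 on the log2 scale, so that 1 SD was a 1.17-fold difference, and the 10th and 90th percentiles were 0.126 and 0.485. An SD above 1 was found for 206 genes (1.70%), and an SD below 0.15 for 2288 genes. The 100 genes of largest variance held 24.0% of the within-group sum of squares over all 12145 genes, and the SD was 1.36 at the last of them (Gm6061) and 1.35 at the next gene (Slpi). Of the total sum of squares, 76.1% lay within the groups and the remainder between them. With 15 residual degrees of freedom over 18 mice, most of it would lie within groups without any group difference. The remainder is thus not the share due to group. In 4 bins of equal gene number by mean expression, from the lowest, the median SD was 0.295, 0.222, 0.191 and 0.203. Among genes with a mean of at least 10 FPKM, the 10 steadiest were Vdac2, Dap3, Oaz2, Ugp2, Rtn3, Usp4, Ppp2ca, Retreg3, Cdk16 and Kdelr1. Vdac2, a channel of the outer mitochondrial membrane, had the smallest SD of all, 0.0487, and Kdelr1, a retrieval receptor of the endoplasmic reticulum, had an SD of 0.0620. The highest of the 18 mice exceeded the lowest by 1.15-fold to 1.41-fold in these 10 genes.

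**Figure D1:**
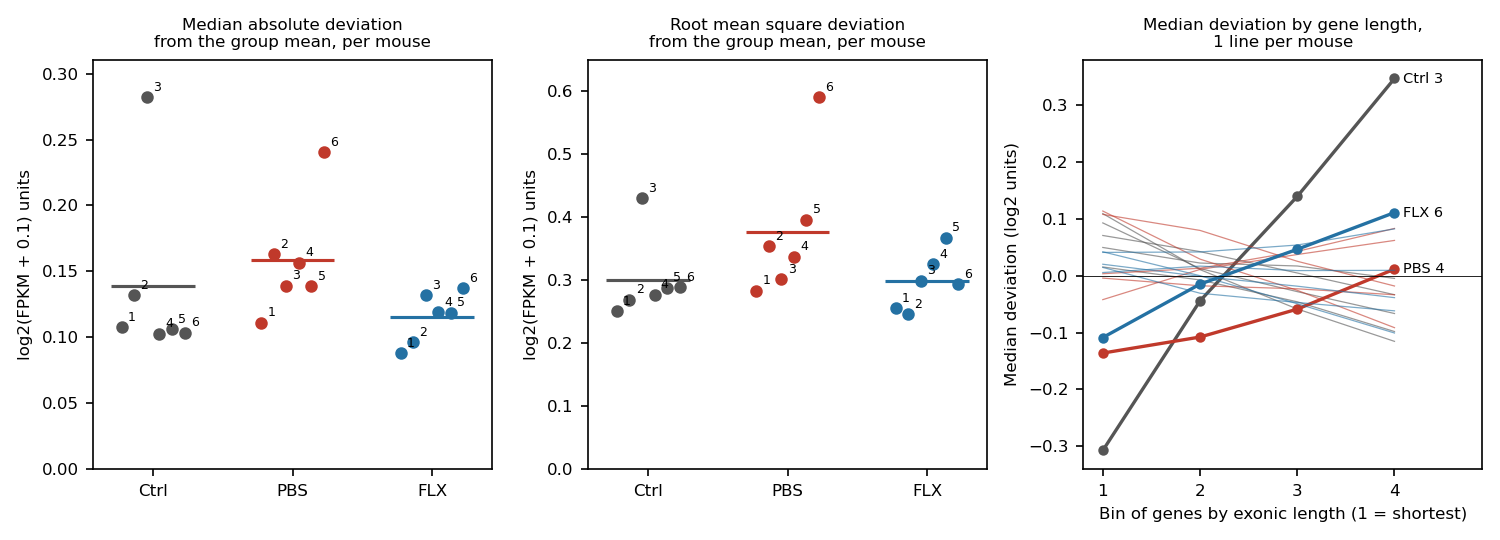
Distance of each mouse from its group. The left and middle panels give, for each mouse as 1 numbered point, the median absolute and the root mean square deviation over 12145 genes on the log2(FPKM + 0.1) scale, with a line at the group mean. The right panel gives the median deviation in log2 units in each of 4 bins of genes by exonic length, 1 line per mouse. Ctrl 3 stands highest in the left panel at 0.282, PBS 6 stands highest in the middle panel at 0.590, and the line of Ctrl 3 climbs from -0.31 to 0.35 with gene length.

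Ctrl 3 and PBS 6 stood apart from the mice of their own groups, in different ways, as the plot of distance by mouse shows. The median absolute deviation over genes was 0.282 in Ctrl 3 against 0.103 to 0.132 in the other Ctrl mice, and 0.241 in PBS 6 against 0.111 to 0.163 in the other PBS mice. In FLX it was 0.0882 to 0.137, with the 2 more deeply sequenced mice at 0.0882 and 0.0964 and the 4 others at 0.119 to 0.137. Ctrl 3 was the farthest from its group mean of the 6 Ctrl mice for 55.9% of genes, and PBS 6 of the 6 PBS mice for 40.3%. Ctrl 3 was moderately displaced in many genes, with 256 genes deviating by more than 1 log2 unit, whereas PBS 6 had 839 such genes, 348 above and 491 below its group mean. PBS 6 alone held 17.2% of the within-group sum of squares of all 18 mice.

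The displacement of Ctrl 3 followed gene length. Across genes, which are not independent replicates, the deviation in Ctrl 3 had a Spearman's rho of 0.567 with exonic length, against -0.397 to -0.105 in the other Ctrl mice. The median deviation of Ctrl 3 was -0.31, -0.04, 0.14 and 0.35 in 4 successive bins of genes from short to long. FLX 6 (rho = 0.366) and PBS 4 (0.219) leaned the same way. In Ctrl 3, genes of ribosomal proteins, which are short, supplied 2.32% of all FPKM against 3.55% to 4.14% in the other Ctrl mice. Genes of the mitochondrial genome supplied 28.1% against 20.9% to 23.8%. Of the Ctrl mice, Ctrl 3 had the highest mean deviation for the genes of the mitochondrial genome (0.33 log2 units) and for the clock (0.26), male-biased (0.38), T and NK cell (0.51), thick limb (0.24), podocyte (0.23) and proximal tubule (0.17) lists described below, and the lowest for red blood cell genes (-1.55). The part that the length relation plays in these values was not tested.

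The 25 genes of largest variance fell into fat, urothelium, an airway type secretory gene, an immunoglobulin segment and genes that share exons with a neighbour. Commd1b (ENSMUSG00000098650, chromosome 11, 22834744 to 22982090 on GRCm38) came first, with an SD of 3.37 log2 units. Its FPKM per mouse was 0, 20.1, 0.529, 0, 20.2 and 0 in Ctrl 1 to 6, 18, 0, 0, 0, 0 and 0 in PBS, and 0.325, 0.0383, 0, 6.34, 0 and 16.7 in FLX. Each group thus held mice near 0 and at least 1 mouse at 16.7 FPKM or more. By the GENCODE annotation of the same build, 99.9% of its exonic bases are also exonic in B3gnt2, a glycosyltransferase gene, on the same strand. B3gnt2 was at 1.69 to 2.02 FPKM in the 2 Ctrl mice with high Commd1b and at 10.5 to 12.2 in the other 4. The deviations of the pair had a Pearson's r of -0.87 over 18 mice, and the SD of their summed level was 0.44 log2 units against 3.37 for Commd1b alone.

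The same held for other pairs, shown in the plot of paired genes. Gm20716 (SD 3.24) lies wholly within exons of Adnp, the gene of a neuroprotective homeobox protein. It was listed at 0 in 3 Ctrl, 3 PBS and 5 FLX mice and at 4.41 to 12.8 FPKM in the 7 others. The r with Adnp was -0.89, and the SD of the sum was 0.32. The 2 genes listed as Septin2, which encodes a cytoskeletal GTPase, had r = -0.80 and an SD of the sum of 0.34. Gm20521 with Pabpn1, a poly(A)-binding protein, had r = -0.67 with an SD of 0.12 for the sum, and Gm27029 with Aarsd1 r = -0.78 with 0.086. Of the 100 genes of largest variance, 24 shared at least 50% of their exonic bases with another gene of the same strand, as against 156 (1.29%) of the 12138 genes that were matched to the annotation. The sources used here do not say how reads were divided between overlapping genes, so the level of each gene in such a pair is uncertain.

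**Figure D2:**
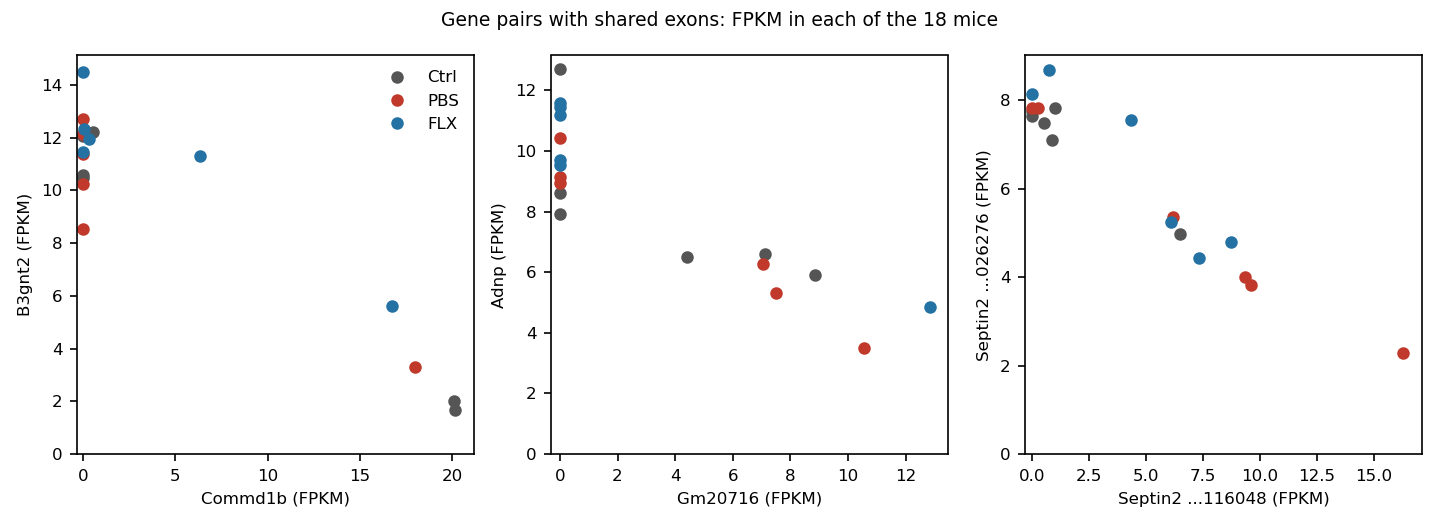
Levels of 3 gene pairs with shared exons, in FPKM, 1 point per mouse and coloured by group. Mice with a high level of the first gene (horizontal axis) have a low level of the second (vertical axis), while the SD of the summed level is 0.44, 0.32 and 0.34 log2 units for the pairs from left to right.

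In all, 41 of the 100 genes were below 0.05 FPKM in at least 1 mouse and above 5 FPKM in another, as were 47 of all 12145 genes. So wide a range brings a large variance, so that the 41 follow largely from the selection by variance. Of these 41, 18 shared exonic bases with a neighbour, as did 30 of the 100 and 8.85% of all genes matched to the annotation. The remaining named genes of the 25 that share exons were Gm45717 (with Ifitm2, an interferon-induced membrane protein), Gm28040 (with Golt1a), Gm49450 (with Tuba1a), Gm10774 (with Usp50), Ugt1a1 and H2ac18. Ugt1a1 shared 59.0% with Ugt1a9, both glucuronidation genes of the Ugt1a locus, and the histone gene H2ac18 shared 90.3% with Gm20634. Igkj1 (SD 2.53), a joining segment of the immunoglobulin kappa locus, was the one immune gene among the 25.

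Fat genes formed the largest set that varied together. Among the 200 genes of largest variance, 103 fell into 6 clusters of at least 5 genes by the correlation of their deviations, and the first cluster held 39 genes with a mean pairwise r of 0.86. It joined adipokines, lipid droplet proteins and lipogenic enzymes (Adipoq, Cfd, Retn, Plin1, Plin4, Cidec, Fasn, Scd1, Acaca, Pparg, Lipe) with the brown fat genes Ucp1, Cox8b and Cidea. The mean deviation of the cluster was highest in FLX 5 (3.07), PBS 5 (3.03) and Ctrl 6 (1.69) and lowest in PBS 6 (-1.94).

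Ucp1 (ENSMUSG00000031710, chromosome 8, 83290352 to 83298452), the uncoupling protein with which brown fat makes heat, had the largest SD of the fat genes, 3.14. Its lowest, median and highest levels were 0, 0.670 and 6.57 FPKM in Ctrl, 0.251, 7.49 and 214 in PBS and 0, 7.32 and 65.0 in FLX. Sets of 3 levels per group are given in this order for the genes that follow. Every group held mice at or below 1 FPKM and mice well above it, with 214 FPKM in PBS 5, 65.0 in FLX 2 and 54.6 in FLX 5, and the groups overlapped. Cox8b, a cytochrome oxidase subunit of brown fat and muscle, followed Ucp1 with r = 0.92 over the 18 mice and had 0, 1.37 and 23.7 FPKM in Ctrl, 0.402, 10.4 and 242 in PBS and 1.11, 8.42 and 122 in FLX. For Cidea, a lipid droplet protein of brown fat, the values were 0.0945, 0.966 and 25.8 FPKM in Ctrl, 0.280, 7.60 and 190.4 in PBS and 0.524, 6.29 and 132 in FLX. Of the 10 brown fat genes listed, 6 reached 1 FPKM on average. Their median SD was 1.97, against 0.226 for all genes, and between the lowest and the highest mouse their mean deviation ranged over 5.40 log2 units, a 42.3-fold difference. Fabp3, which carries fatty acids in several tissues, was the steadiest of the 6 with an SD of 0.24.

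White fat genes varied with them. Of 12 listed, 11 were measured and 9 were among the 100 genes of largest variance, with a median SD of 1.98. Adipoq, the adiponectin gene, had 0.334, 2.67 and 19.9 FPKM in Ctrl, 0.963, 7.95 and 87.4 in PBS and 2.02, 6.54 and 103 in FLX. PBS 5 and FLX 5 were far above the other mice of their groups, while the highest Ctrl mice, Ctrl 1 and Ctrl 6, stood at 13.2 and 19.9 FPKM. Cfd, which encodes the complement protease adipsin, reached 664 FPKM in PBS 5 and 858 in FLX 5, against 3.11 in Ctrl 5. Orm1, an acute phase plasma protein gene, joined the fat cluster with its highest levels in the same 2 mice, 35.4 and 27.7 FPKM. The mean deviations of the brown and white fat lists had r = 0.88 over 18 mice, 0.81 without the 2 mice farthest out (group means taken again), and 0.99, 0.94 and 0.75 within Ctrl, PBS and FLX. In bulk tissue, more or fewer cells of a type and more or less RNA per cell cannot be told apart.

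**Figure D3:**
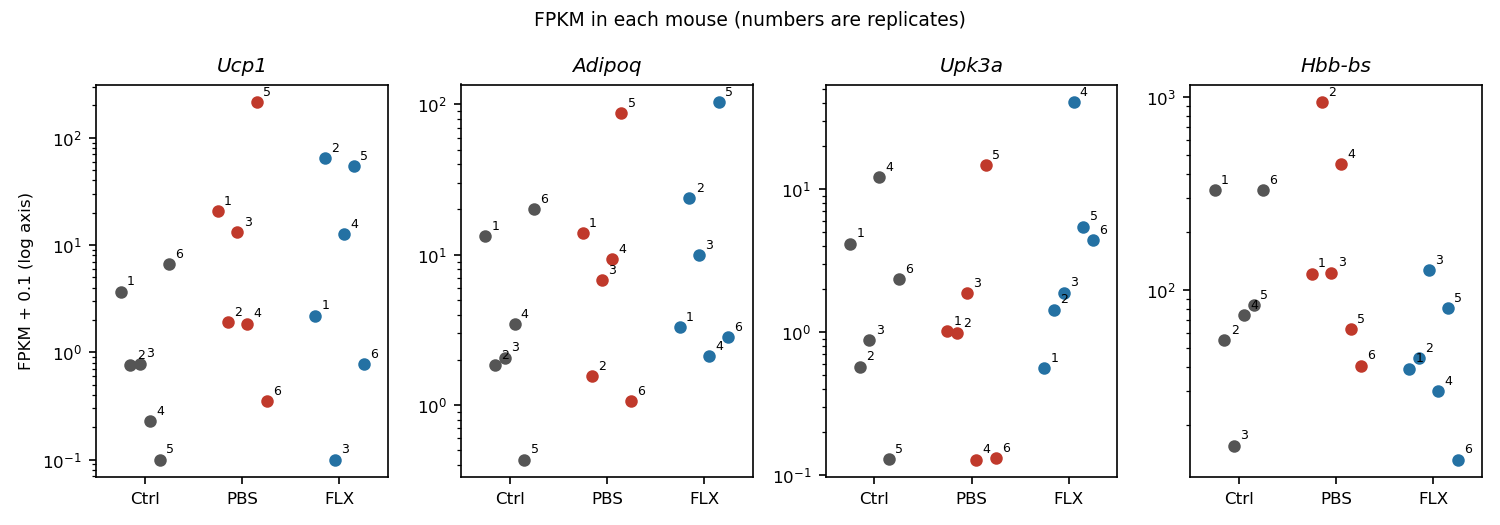
Levels of Ucp1 (brown fat), Adipoq (white fat), Upk3a (urothelium) and Hbb-bs (red blood cells) in each mouse, as FPKM + 0.1 on a log axis, with 1 point per mouse numbered by replicate within its group. In each panel the 3 groups overlap. PBS 5 is high for Ucp1, Adipoq and Upk3a, and PBS 2 is highest for Hbb-bs at 937 FPKM.

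Urothelial genes varied over an even wider range. All 6 urothelium genes listed were measured and all 6 were among the 100 genes of largest variance, with a median SD of 2.06, a mean pairwise r of 0.92 and a range of mean deviations of 6.29 log2 units (78.3-fold). Upk3a (ENSMUSG00000022435, chromosome 15, 85017141 to 85022547), a uroplakin of the apical plaque, had 0.0291, 1.51 and 12 FPKM in Ctrl, 0.0287, 0.901 and 14.6 in PBS and 0.460, 3.05 and 40.2 in FLX. Ctrl 4, PBS 5 and FLX 4 were the highest mice of their groups at 12, 14.6 and 40.2 FPKM, and Ctrl 5, PBS 4 and PBS 6 lay at 0.0287 to 0.0319. Psca, a surface antigen of urothelium, varied with Upk3a (r = 0.96) and had 0.0476, 3.40 and 51.6 FPKM in Ctrl, 0.231, 1.33 and 35.6 in PBS and 0.539, 6.73 and 68.1 in FLX. The cluster that held these genes had 20 members and also contained small proline-rich proteins of squamous epithelia. Sprr1a was at 136 FPKM in FLX 4, 32.4 in PBS 5 and 16.8 in Ctrl 4. Urothelium and white fat lists had r = 0.51 over 18 mice, but 0.30 without the 2 mice farthest in fat, and 0.65, 0.85 and 0.09 within Ctrl, PBS and FLX. PBS 5 was high in both, FLX 5 was highest in fat and FLX 4 in urothelium.

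A further cluster of 9 genes held 2 members of the collecting duct list, Slc14a2 and Aqp4. Its members were Slc14a2, Gsdmc2, Gsdmc3, Tnn, Lypd2, Cck, Wnt7b, Gm45660 and Aqp4. Slc14a2, the urea transporter of the inner medullary collecting duct, had 0.331, 7.44 and 12.6 FPKM in Ctrl, 0.0692, 5.20 and 13.9 in PBS and 2.01, 9.84 and 13.2 in FLX. It lay at 0.0692 FPKM in PBS 6, 0.114 in PBS 4 and 0.331 in Ctrl 5, and at 2.01 to 13.2 in FLX. Aqp4, a basolateral water channel of the same cells, shared the low value of PBS 6 (0.194 FPKM) and had r = 0.69 with Slc14a2. Aqp2, the water channel of the whole collecting duct, did not share the pattern: it was at 359.6 FPKM in PBS 6 and 357 in Ctrl 4, its 2 highest values, and had r = 0.02 with Slc14a2. Over the 7 collecting duct genes listed, the median SD was 0.55 and the mean pairwise r was 0.08. Gsdmc2, a gasdermin, was at 26.8 FPKM in FLX 4, the mouse with the highest urothelial genes.

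Scgb1a1 (SD 2.90), the secretoglobin of airway club cells, belonged to none of these sets. It was at 33.3 FPKM in Ctrl 4, 6.77 in Ctrl 5 and 32.4 in PBS 5, and at or below 0.257 FPKM in the other 15 mice.

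Haemoglobin genes varied with a set order of mice. Hbb-bs (ENSMUSG00000052305, chromosome 7, 103826534 to 103827928), the adult beta globin, had 15.5, 78.8 and 329 FPKM in Ctrl, 40.5, 122 and 937 in PBS and 13.1, 41.6 and 127 in FLX. PBS 2 and PBS 4 (937 and 449 FPKM) and Ctrl 1 and Ctrl 6 (328 and 329) were high, and Ctrl 3 and FLX 6 (15.5 and 13.1) were lowest. Hba-a1, the alpha globin partner, ran in parallel with r = 0.99. The 4 globin genes were among the 100 of largest variance. The other measured genes of the red blood cell list, Bpgm (SD 0.16) and Slc4a1 (0.36), are also expressed by kidney cells and were steady, and the mean pairwise r of the list was 0.33. Red blood cell and white fat lists had r = 0.21. Over 18 mice the mean deviation of the red blood cell list had r = -0.52 with the length relation of the library. This r was -0.56, -0.34 and -0.81 within Ctrl, PBS and FLX, and -0.51 without PBS 2 and Ctrl 6. The part of the length relation in the order of mice was not tested.

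PBS 6 was the extreme mouse of 3 of the remaining clusters. The third cluster (15 genes) was high in this mouse (mean deviation 3.83), and the fourth (15 genes) and the sixth (5 genes) were low (-3.64 and -2.84). The first principal component of all deviations held 21.8% of their sum of squares. Gm20521, Gm45717, Fgb and Fgg were among the genes at its positive end, where PBS 6 lay. H2ac18, Mfsd2a, Bcat1 and Slc7a13 were among those at its negative end. Of these, Gm20521, Gm45717 and H2ac18 share exons with a neighbour, so that their levels are uncertain. The second component (15.6%) was highest in PBS 5 and FLX 5. Its largest positive loadings were those of Cox8b, Cidea, Ucp1, Orm1 and Sptssb, the last a member of the urothelial cluster. FLX 2, also high in the brown fat list (mean deviation 1.57), had a score of -0.0104. The third component (13.5%) was highest in Ctrl 3. The fourth (8.81%) set FLX 5 with Ugt1a1, Cidec and Adipoq against FLX 4 with Gsdmc2, Psca and Slc14a2. The plot of gene list means shows in which lists PBS 6 was the extreme mouse.

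**Figure D4:**
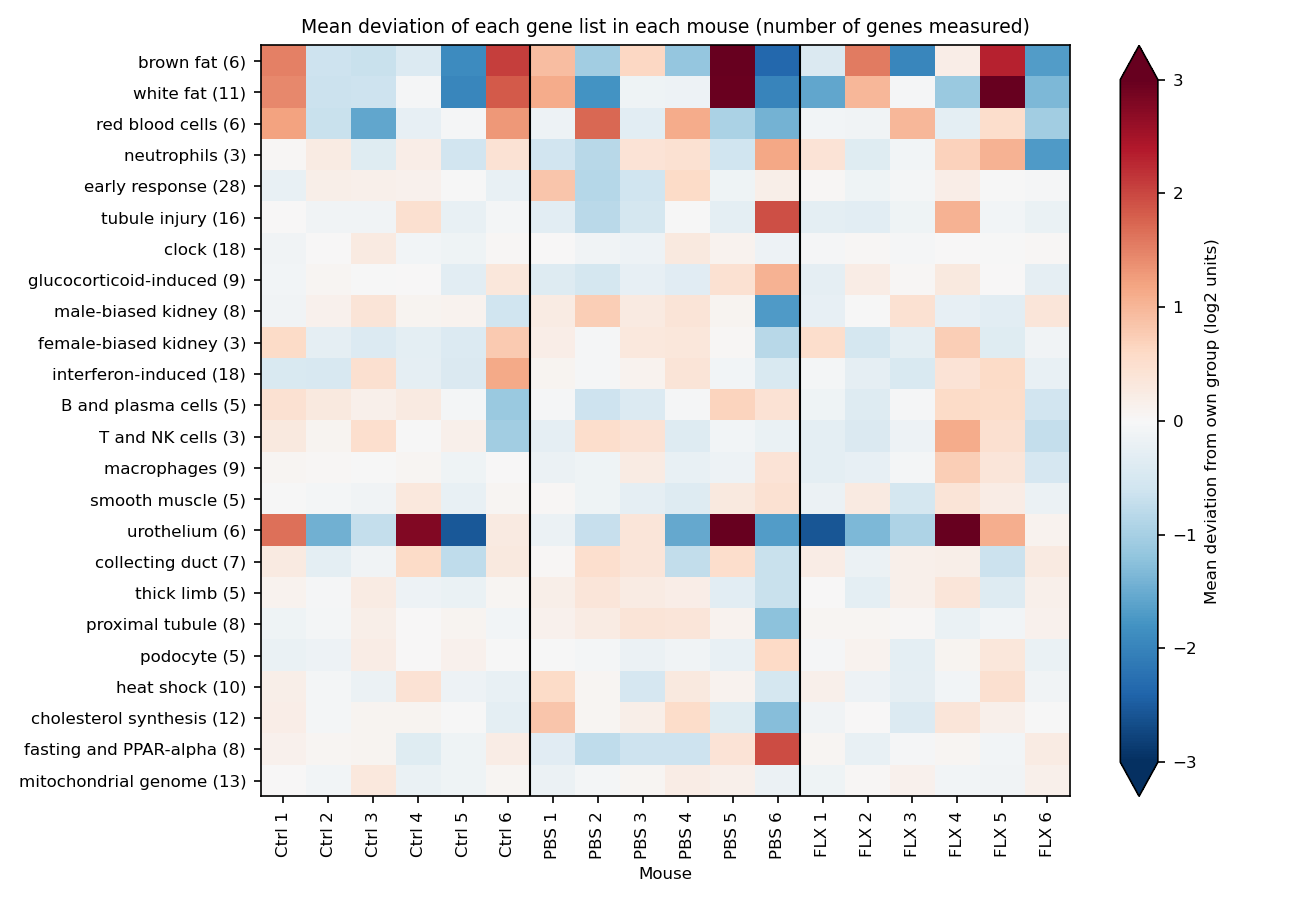
Mean deviation of each gene list in each mouse, in log2 units from the mean of the mouse's own group (colour scale limited to -3 to 3), with the number of measured genes in brackets. PBS 6 is high for tubule injury (1.94) and for fasting and PPAR-alpha genes (1.95) and low for male-biased (-1.71), proximal tubule (-1.22) and cholesterol synthesis genes (-1.27). FLX 4 is the highest FLX mouse for tubule injury (1.05).

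Genes of injured tubules and of the acute phase were high in PBS 6. Lcn2 (ENSMUSG00000026822, chromosome 2, 32384633 to 32387797), the neutrophil gelatinase-associated lipocalin that injured tubules secrete, had 0.474, 1.25 and 1.82 FPKM in Ctrl, 0.985, 2.83 and 49.2 in PBS and 0.865, 1.21 and 6.37 in FLX. PBS 6 held the 49.2, the other PBS mice 0.985 to 4.42, and FLX 4 the 6.37. Havcr1, the kidney injury molecule of proximal tubule cells, had 0.242, 0.659 and 0.932 FPKM in Ctrl, 0.346, 1.20 and 9.75 in PBS and 0.189, 0.629 and 2.40 in FLX, again with PBS 6 and FLX 4 as the highest mice of their groups. Fgb, the fibrinogen beta chain, was at 39.7 FPKM in PBS 6 and at 0.183 to 0.547 in the other PBS mice, and Fgg and Fga reached 281 and 266 FPKM there. Spp1, the osteopontin gene, was at 3904 FPKM in PBS 6 against 534 to 931 in the other PBS mice. Cdkn1a, which encodes the cell cycle inhibitor p21, was at 34.2 FPKM in PBS 6 against 5.53 to 13.6. Over the 16 measured genes of the injury list, the median SD was 0.99 with all mice and 0.56 without PBS 6.

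Not all injury genes followed PBS 6. Cxcl1, a neutrophil-attracting chemokine, had 0.419, 1.14 and 2.98 FPKM in Ctrl, 0.425, 3.83 and 14.6 in PBS and 0.382, 1.22 and 2.61 in FLX, and its highest mice were PBS 1 (14.6) and PBS 4 (13.1), with PBS 6 at 5.79. The keratins Krt18 and Krt19, which simple epithelia and urothelium also express, were high in the urothelium-rich mice instead. Krt19 was at 22.9 FPKM in FLX 4, 13.2 in PBS 5 and 5.45 in Ctrl 4. FLX 4 was also the highest FLX mouse for Timp1, an inhibitor of metalloproteinases, at 4.56 FPKM. The part of urothelium in the injury list of FLX 4 and Ctrl 4 was not tested.

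The calgranulins of neutrophils had their highest levels in PBS 6. S100a8 had 0, 0.536 and 1 FPKM in Ctrl, 1.82, 3.94 and 22.1 in PBS and 0.0833, 0.331 and 1.20 in FLX. PBS 6 lay at 22.1 FPKM and the next PBS mouse, PBS 4, at 7.65, and no Ctrl or FLX mouse reached the PBS mice. For S100a9 PBS 6 stood at 32.8 FPKM. The third measured gene of the 14 in the neutrophil list was Il1b, and the list had a median SD of 1.19 with a mean pairwise r of 0.13.

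Genes of fasting metabolism, targets of the fatty acid receptor PPAR-alpha, were high in the same mouse. Cyp4a10 (ENSMUSG00000066072, chromosome 4, 115518264 to 115533649), a fatty acid hydroxylase of the list, had 120.4, 149 and 210.4 FPKM in Ctrl, 153, 195 and 841 in PBS and 113, 173 and 224 in FLX. PBS 6 held the highest value, and the other PBS mice lay at 153 to 217. Plin2, which coats lipid droplets, was at 126 FPKM in PBS 6 against 20.5 to 54.5. Depp1, an autophagy regulator induced by fasting and a member of no list, was at 354 against 7.04 to 18.1. The metallothionein Mt2 (620.3 FPKM) and Angptl4 (55.6), which inhibits lipoprotein lipase, belong to the glucocorticoid-induced list. Without PBS 6 the median SD of the fasting list was 0.34 in place of 0.52.

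Proximal tubule transporters and male-biased genes were low in PBS 6. The 8 male-biased genes, which androgens maintain in the male kidney, had a median SD of 0.63, and 0.41 without this mouse. Slco1a1, a steroid conjugate transporter of that list, was at 0.427 FPKM in PBS 6 and 2.82 to 6.35 in the other PBS mice. Slc7a13, an amino acid transporter of the straight proximal tubule, had 227, 289 and 334 FPKM in Ctrl, 6.44, 207 and 254 in PBS and 215, 307 and 383 in FLX, with PBS 6 at 6.44 and every other mouse at or above 172. Mfsd2a, a transporter of lysophospholipids, had 6.47, 11.1 and 20.4 FPKM in Ctrl, 0.547, 29.3 and 57.1 in PBS and 5.15, 14.0 and 16.9 in FLX. Its other PBS mice, at 21.4 to 57.1 FPKM, were all above the Ctrl and FLX mice, so that PBS 6 was the lowest of all mice in the group that was otherwise highest. Slc22a7, an organic anion transporter, was at 3.46 FPKM in PBS 6 against 22.6 to 78.0, Cyp7b1, a steroid hydroxylase, at 2.84 against 31.6 to 53.3, and Acsm3, a medium-chain acyl-CoA synthetase, at 3.28 against 21.6 to 51.5. Not all proximal tubule genes were low. Slc5a2, the glucose transporter of its first segment, was at 148 FPKM in PBS 6 and 124 to 156 in the other PBS mice, and Slc5a12, a lactate transporter, at 29.2 against 22.2 to 36.2. Over the 8 proximal tubule genes the median SD was 0.30, and 0.22 without PBS 6. Slc34a1, the phosphate transporter, was at 362 against 704 to 878.

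Cholesterol synthesis genes were low in PBS 6 as well. Cyp51, a sterol demethylase, had 50.1, 54.1 and 60.2 FPKM in Ctrl, 5.59, 74.8 and 94.5 in PBS and 43.4, 53.1 and 64.6 in FLX, with the 5.59 in PBS 6 and the other PBS mice at 64.0 to 94.5, above every Ctrl mouse. Idi1, an isomerase of the same pathway, was at 2.72 FPKM in PBS 6. The list also varied among the other PBS mice, from a mean deviation of 0.84 in PBS 1 to -0.37 in PBS 5, and had a median SD of 0.58, or 0.44 without PBS 6. Podocyte genes were higher in PBS 6 than in the other PBS mice, with Podxl, a coat protein of podocytes, at 47.8 FPKM against 26.5 to 32.5.

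The correlations between these lists were smaller without PBS 6. The injury and proximal tubule lists had r = -0.87 over 18 mice and -0.45 without PBS 6 (group means taken again), with -0.19, -0.95 and -0.83 within Ctrl, PBS and FLX. For injury and fasting lists r was 0.75 with and 0.054 without PBS 6, and -0.64, 0.91 and 0.20 within Ctrl, PBS and FLX. For injury and male-biased lists it was -0.79 and -0.28, and for injury and glucocorticoid-induced lists 0.76 and 0.38. Macrophage and neutrophil lists had r = 0.73, and 0.78, 0.74 and 0.76 within Ctrl, PBS and FLX. Without FLX 6 and PBS 6, the mice farthest out in the neutrophil list, r was 0.54. Only 3 of the 14 neutrophil genes were measured, with a mean pairwise r of 0.13. FLX 4 was highest for macrophages (0.73) and FLX 6 lowest for neutrophils (-1.70).

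Early response genes split the PBS mice. Of 34 listed, 28 were measured, with a median SD of 0.81 in PBS against 0.33 in Ctrl and 0.26 in FLX. Over all genes, the median SD was 0.215 in Ctrl, 0.233 in PBS and 0.170 in FLX. The mean deviation of the list was 0.83 in PBS 1, 0.57 in PBS 4, -0.60 in PBS 3 and -0.85 in PBS 2, and lay between -0.23 and 0.21 in the other 14 mice. Egr1, a zinc finger factor induced within minutes, had 6.46, 10.1 and 20.3 FPKM in Ctrl, 3.37, 6.93 and 54.7 in PBS and 4.37, 6.59 and 9.66 in FLX. PBS 1 (54.7) and PBS 4 (36.1) were above every other mouse, and PBS 2 and PBS 3 (3.37 and 3.63) were below every other mouse. Maff, a small Maf factor, had 0.571, 1.46 and 1.94 FPKM in Ctrl, 1.17, 4.15 and 11.7 in PBS and 0.883, 1.09 and 1.71 in FLX, with PBS 4, PBS 1 and PBS 6 in front. Atf3, a stress-induced factor, was at 11.9 FPKM in PBS 1 and 10.8 in PBS 4 against 1.08 to 3.18 in the other PBS mice. Fos, the classical immediate early gene, ran from 0.774 to 8.87 FPKM over all 18 mice.

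Clock genes varied less and in opposite directions. Of 19 listed, 18 were measured, with a median SD of 0.41 and a mean pairwise r of 0.06, the pairs running from -0.95 to 0.80 (Dbp with Ciart, a clock repressor). The lowest was that of Dbp, an output factor of the clock, with Arntl, its upstream activator whose messenger peaks at the opposite time of day. Dbp had 9.39, 15.1 and 22.1 FPKM in Ctrl, 3.23, 5.88 and 23.0 in PBS and 0.694, 1.06 and 1.69 in FLX. Arntl had 0.652, 0.881 and 1.18 FPKM in Ctrl, 0.620, 1.64 and 1.94 in PBS and 2.42, 3.38 and 3.94 in FLX. Their deviations had r = -0.95 over the 18 mice, -0.89 without PBS 4 and PBS 3, and -0.89, -0.98 and -0.85 within Ctrl, PBS and FLX. PBS 4 had the highest Dbp (23.0 FPKM), Ciart (5.47) and Per3 (2.23) of the PBS mice and the lowest Arntl (0.620) and Npas2 (0.409). Ctrl 3 had the highest Dbp (22.1 FPKM), Ciart (1.72) and Per3 (2.64) and the lowest Arntl (0.652) of the Ctrl mice. PBS 4 and Ctrl 3 had the 2 largest mean deviations of the clock list, 0.30 and 0.26, while the other 16 mice lay between -0.16 and 0.10. Over 18 mice the mean deviation of the list had r = 0.70 with the length relation of the library (0.89, 0.71 and 0.56 within Ctrl, PBS and FLX) and r = 0.78 with the mitochondrial share of FPKM (0.91, 0.79 and 0.26). Without PBS 4 and Ctrl 3 these r were 0.40 and 0.49, and the part of either measure in the clock genes was not tested. Nr1d1, a clock repressor, did not follow Dbp (r = -0.14). It was highest in PBS 6, at 33.3 FPKM against 7.27 to 12.3 in the other PBS mice. The sources used here give no time of day at which each mouse was killed.

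Promoters are shown of the most variable early response and clock genes, by pooled SD, that hold a searched element. Not every chromosome was considered for this choice, so that a more variable gene may be missing. The sequences are from RefSeq on GRCm38.p6, 250 bases before to 50 after the start site, 5′ to 3′ on the gene's strand, and capitals mark the element found. Maff lies at chr15:79347270-79347569 on the plus strand, with an E-box (CACGTG) whose first base is at -191 and a cyclic AMP response element (TGACGTCA) at -29 from the start site. Zfp36, an RNA-binding protein that shortens inflammatory messengers, lies at chr7:28379179-28379478 on the minus strand with a serum response element at -58. Ciart lies at chr3:95882179-95882478 on the minus strand with E-boxes at -116, -58 and -44. Per3 lies at chr4:151044616-151044915 on the minus strand with D-boxes (TTATGTAA) at -205 and -158.
Maff: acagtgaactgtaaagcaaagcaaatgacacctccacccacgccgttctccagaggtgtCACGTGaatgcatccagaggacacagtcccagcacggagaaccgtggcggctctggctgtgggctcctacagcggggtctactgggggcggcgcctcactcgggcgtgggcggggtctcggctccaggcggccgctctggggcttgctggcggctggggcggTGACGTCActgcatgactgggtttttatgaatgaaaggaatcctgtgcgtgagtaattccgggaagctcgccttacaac
Zfp36: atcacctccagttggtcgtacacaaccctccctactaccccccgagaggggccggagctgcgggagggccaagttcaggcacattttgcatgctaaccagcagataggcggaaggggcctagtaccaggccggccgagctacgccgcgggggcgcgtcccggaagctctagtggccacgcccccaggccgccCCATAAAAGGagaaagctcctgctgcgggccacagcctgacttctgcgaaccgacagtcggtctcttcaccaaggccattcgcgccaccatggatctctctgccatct
Ciart: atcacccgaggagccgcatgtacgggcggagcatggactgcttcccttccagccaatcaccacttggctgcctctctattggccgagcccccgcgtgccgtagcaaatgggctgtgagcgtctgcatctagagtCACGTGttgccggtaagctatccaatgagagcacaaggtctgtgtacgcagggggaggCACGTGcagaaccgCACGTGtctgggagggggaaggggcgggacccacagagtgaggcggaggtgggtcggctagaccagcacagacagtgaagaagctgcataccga
Per3: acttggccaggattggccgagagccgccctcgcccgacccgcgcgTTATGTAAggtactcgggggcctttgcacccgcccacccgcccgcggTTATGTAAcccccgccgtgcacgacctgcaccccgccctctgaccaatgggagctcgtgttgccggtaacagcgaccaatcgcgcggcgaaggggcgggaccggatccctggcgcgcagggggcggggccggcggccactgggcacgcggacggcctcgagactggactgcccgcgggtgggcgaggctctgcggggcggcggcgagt

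The elements were searched on both strands. Of all 32851 promoters, 7.15% held the E-box, 1.79% the cyclic AMP response element, 0.938% the D-box and 1.63% the serum response element. Of the 28 early response genes, 23 were matched to a promoter, and 6 held an E-box, 3 a cyclic AMP response element, 1 a serum response element and 0 a D-box. Of the 18 clock genes, 15 were matched, and 4 held an E-box, 1 a cyclic AMP response element, 1 a D-box and 0 a serum response element. A gene was counted if any promoter listed under its symbol held the element, whereas the shares above are per promoter. The counts and the shares are thus not in the same unit. The elements found are matches of letters and not measured binding sites. Zfp36 had 12.7, 19.8 and 29.3 FPKM in Ctrl, 8.66, 22.7 and 45.2 in PBS and 10, 13.9 and 16.6 in FLX, with PBS 1 and PBS 4 again the highest of the PBS mice. Ciart had 0.659, 1.15 and 1.72 FPKM in Ctrl, 1.14, 1.84 and 5.47 in PBS and 0.137, 0.268 and 0.395 in FLX. For Per3 the values were 1.20, 1.62 and 2.64 FPKM in Ctrl, 0.514, 1.17 and 2.23 in PBS and 0.637, 0.719 and 0.874 in FLX.

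Interferon-induced genes were high in Ctrl 6. Of 22 listed, 18 were measured, with a median SD of 0.79 in Ctrl, 0.38 in PBS and 0.42 in FLX and a mean pairwise r of 0.62. Isg15, a ubiquitin-like antiviral protein, was at 29.5 FPKM in Ctrl 6 and 4.46 to 6.69 in the other Ctrl mice, 3.21 to 7.03 in PBS and 3.49 to 7.77 in FLX. Ifit1, which binds viral RNA, was at 8.43 against 0.908 to 2.21 in Ctrl, and Irf7, an interferon regulatory factor, at 34.4 against 4.96 to 6.53. Genes that interferon gamma also induces had another order. Iigp1, an immunity-related GTPase, was high in Ctrl 3 (7.28), FLX 5 (6.18), PBS 4 (5.77) and Ctrl 6 (3.81). Ctrl 6 was at the same time the lowest Ctrl mouse for lymphocyte genes. Igkc, the kappa light chain constant region, was at 8.05 FPKM there and 24.1 to 33.6 in the other Ctrl mice. Macrophage genes were steadier, with 9 of 9 measured and a median SD of 0.37, and Lyz2, a lysozyme of myeloid cells, was highest in FLX 4 at 72.0 FPKM.

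The remaining lists were near the background of all genes or between it and the sets above. The 13 genes of the mitochondrial genome had a median SD of 0.19 and the 5 podocyte genes 0.26, as against 0.226 over all genes. Smooth muscle genes (5 of 7 measured) had 0.46, heat shock genes 0.47, thick limb genes 0.33 and glucocorticoid-induced genes (9 of 10) 0.54. Lymphocyte lists had few measured members, 5 of 10 for B and plasma cells (0.71) and 3 of 8 for T and NK cells (0.68). The female-biased list (3 of 4) had 1.04, and 0.46 without PBS 6, with a mean pairwise r of 0.01. Its members moved apart in PBS 6. Cyp4a14, a fatty acid hydroxylase related to Cyp4a10, was at 1357 FPKM in PBS 6 and 96.0 to 193 in the other PBS mice, whereas Slc7a12, an amino acid transporter, was at 0.708 against 12.2 to 28.7 and Prlr, the prolactin receptor, at 1.55 against 3.96 to 5.69. Proliferation genes were all below the limit, with summed levels of 1.84 to 5.98 FPKM over 11 genes.

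The question whether variance differed between groups was put to all 12145 genes. The absolute deviation of each mouse, scaled for group size, was compared between groups with limma's moderated test, with Benjamini-Hochberg adjustment over all genes. The effect given is the difference in the mean scaled absolute deviation, in log2 units. Between PBS and Ctrl, 7 genes (0.0576%) were wider in PBS and 0 (0%) narrower, with 1407 genes at an unadjusted p under 0.05. Between FLX and Ctrl, limma called 0 genes wider (0%) and 0 narrower (0%), with 574 at an unadjusted p under 0.05. Between FLX and PBS, 9 genes (0.0741%) were narrower in FLX and 1 (0.00823%) wider, with 1309 at an unadjusted p under 0.05. With deviations from the group median in place of the mean, 4 of the 7 and 3 of the 10 calls were kept, Klf6 in both comparisons, and with squared deviations limma called 0 genes in each (862 and 812 at an unadjusted p under 0.05). The PBS mice are shared by the first and the last comparison. Of all genes, 58.6% had a positive estimate for PBS minus Ctrl, 38.0% for FLX minus Ctrl and 28.6% for FLX minus PBS.

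Klf6 (ENSMUSG00000000078, chromosome 13, 5861482 to 5870394), a zinc finger factor of the early response, was called in both. Its levels in FPKM were 4.83, 4.71, 5.75, 4.10, 4.60 and 5.25 in Ctrl 1 to 6, 19.0, 4.47, 6.78, 20.5, 6.76 and 18.2 in PBS, and 5.66, 6.64, 6.73, 8.96, 6.52 and 5.46 in FLX. PBS 1, PBS 4 and PBS 6 lay at 18.2 to 20.5 and above every other mouse, and the other 3 PBS mice lay at 4.47 to 6.78, within the range of the Ctrl and FLX mice. The mean scaled absolute deviation was 0.924 in PBS, 0.129 in Ctrl and 0.178 in FLX. The difference was 0.79 for PBS minus Ctrl (standard error 0.10, limma adjusted p = 0.00351) and -0.75 for FLX minus PBS (standard error 0.10, limma adjusted p = 0.00824), and all 6 PBS mice deviated more than any Ctrl or FLX mouse. Without PBS 4 the second adjusted p was 0.0502, and the call against Ctrl was kept whichever mouse was left out.

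The other genes wider in PBS than in Ctrl were Spry2, Hspa8, Dusp14, Gm15459, Gm15542 and Gm49909. Spry2, a brake on growth factor signalling, had 3.77, 4.29 and 4.75 FPKM in Ctrl, 3.04, 4.27 and 6.21 in PBS and 3.45, 4.55 and 4.76 in FLX (difference 0.38, standard error 0.05, limma adjusted p = 0.00726), with PBS 1, PBS 4 and PBS 6 high. Hspa8, the constitutive heat shock cognate chaperone, had 278, 308 and 341 FPKM in Ctrl, 271, 408 and 557 in PBS and 318, 424 and 587 in FLX (0.40, limma adjusted p = 0.0128), with PBS 1, PBS 2 and PBS 4 high. Dusp14, a phosphatase of MAP kinases, had the same 3 mice high at 8.56 to 11.5 FPKM and the other 3 at 4.72 to 5.46 (0.41, limma adjusted p = 0.0173). In each of the 7 genes all 6 PBS mice deviated more than every Ctrl mouse. The calls of spread were made from these same deviations, so such a separation in a called gene adds no further support. A deviation is here a distance from the PBS mean, which high mice raise, and not a distance from the Ctrl level. In Klf6, 3 of these PBS mice lay within the range of the Ctrl and FLX mice. For Gm49909, at 0 in every Ctrl mouse, the Ctrl deviations are 0, so that any spread in PBS exceeds them. Gm15459 and Gm15542, annotated as processed pseudogenes, followed Hspa8 with r = 0.98 and 0.92 and are not independent of it if reads are shared. Gm49909, which shares exons with Myl12b, was listed at 0 in all 6 Ctrl mice and in PBS 2, PBS 4, PBS 5 and PBS 6, and at 6.99 and 10.2 FPKM in PBS 1 and PBS 3. Its call was lost without either of these (limma adjusted p = 0.120 and 0.122), and those of Hspa8 and Gm15459 without PBS 4 (0.0593 and 0.0561). The call of Dusp14 was lost without any 1 of 3 mice, Ctrl 2, PBS 5 or PBS 6 (limma adjusted p = 0.0503 to 0.0631), and that of Gm15542 without any 1 of 6, Ctrl 1, Ctrl 2, Ctrl 5, PBS 1, PBS 4 or PBS 6 (0.0514 to 0.0848).

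**Figure D5:**
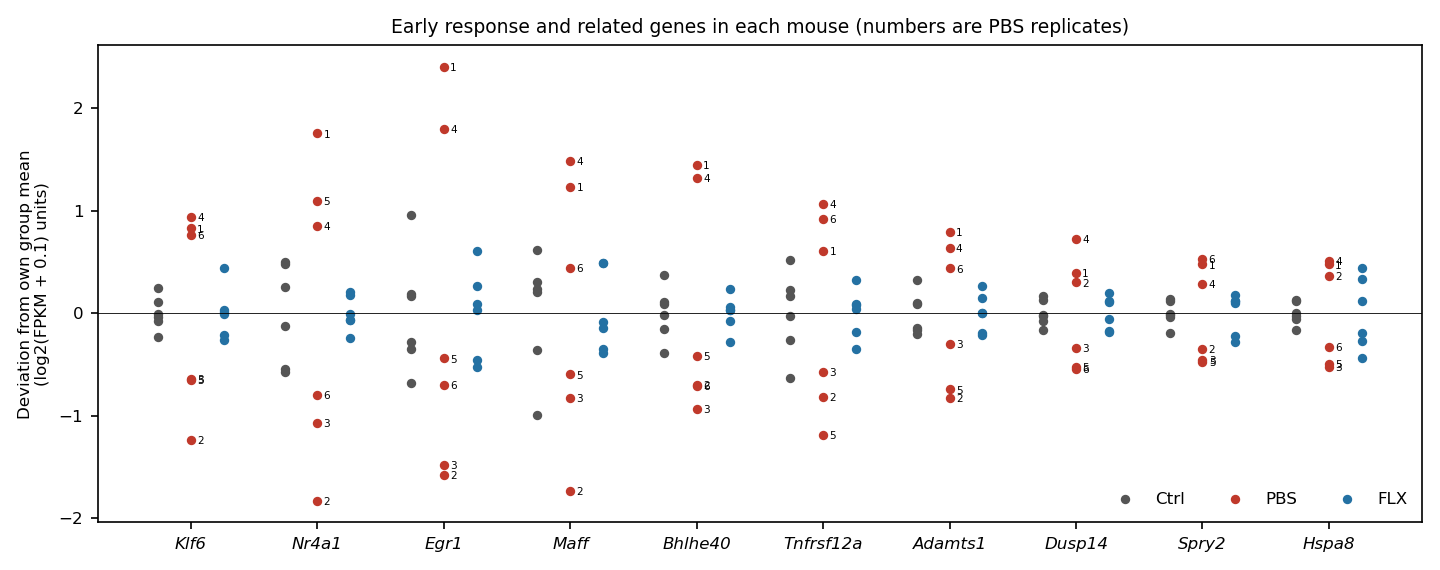
Deviation of 10 genes from the mean of each mouse's own group, on the log2(FPKM + 0.1) scale, 1 point per mouse, with PBS mice numbered. In Klf6 the 6 PBS mice lie 0.646 to 1.23 log2 units from their mean, and the Ctrl and FLX mice lie at most 0.241 and 0.440 from theirs.

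Genes narrower in FLX than in PBS were led by Klf6 and Nr4a1. Nr4a1 (ENSMUSG00000023034, chromosome 15, 101254269 to 101274795), an orphan nuclear receptor of the early response, had 5.07, 8.02 and 10.8 FPKM in Ctrl, 2.78, 12.1 and 34.4 in PBS and 8.46, 9.81 and 11.7 in FLX, with PBS 1, PBS 5 and PBS 4 high and PBS 2 at 2.78. The difference was -1.21 (standard error 0.17, limma adjusted p = 0.00824), the call was kept whichever mouse was left out, and all 6 PBS mice deviated more than every FLX mouse. Against Ctrl, the widening of Nr4a1 in PBS was 0.90 with a limma adjusted p of 0.0511. Tnfrsf12a, the receptor of the cytokine TWEAK and a member of the injury list, had 4.45, 7.34 and 10 FPKM in Ctrl, 8.37, 21.1 and 40.2 in PBS and 6.82, 9.06 and 10.9 in FLX, with PBS 4, PBS 6 and PBS 1 high (-0.75, limma adjusted p = 0.0293). Adamts1, a secreted metalloproteinase, had PBS 1, PBS 4 and PBS 6 at 14.0 to 18 FPKM and the other 3 at 5.80 to 8.40 (-0.53, limma adjusted p = 0.0295). Bhlhe40, a transcriptional repressor of the clock list, was at 66.5 FPKM in PBS 1 and 60.7 in PBS 4 and at 12.6 to 18.1 in the other PBS mice (-0.88, limma adjusted p = 0.0295). Without PBS 1 or PBS 4 its adjusted p by limma was 0.224 or 0.248, and its call was also lost without Ctrl 6, FLX 3, FLX 5 or FLX 6. Dusp14 (-0.36), the small nuclear RNA gene Gm23318 (-1.27) and the pseudogenes Gm30162 (-0.62) and Gm14121 (-0.30) completed the 9. Several of these calls depended on single mice. That of Dusp14 was lost without any 1 of 13 mice, all but Ctrl 3, PBS 2, PBS 3, FLX 2 and FLX 6 (limma adjusted p = 0.0562 to 0.0973). For Gm14121 there were 10 such mice, Ctrl 1, 2 and 6, PBS 1, 2, 4 and 5 and FLX 1, 4 and 5 (0.0592 to 0.0917), and for Adamts1 9, Ctrl 1 and 6, PBS 1, 2, 4 and 5 and FLX 1, 2 and 4 (0.0525 to 0.0873). The call of Tnfrsf12a was lost without any 1 of Ctrl 6, PBS 4, 5 and 6 and FLX 4 and 5 (0.0527 to 0.0868), that of Gm23318 without Ctrl 6 or PBS 1 (0.0504 and 0.0531) and that of Gm30162 without PBS 4 (0.0742). Egr1, whose range in PBS was larger still, was not called (limma adjusted p = 0.184 for PBS minus Ctrl and 0.138 for FLX minus PBS).

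The gene wider in FLX was 1 of the 2 listed as Ndor1, an oxidoreductase (ENSMUSG00000115018). It was at 0.124 and 0.665 FPKM in FLX 3 and FLX 6 and at 4.39 to 5.86 in the other FLX mice, against 3.29 to 4.15 in PBS (difference 1.63, limma adjusted p = 0.0383). Without FLX 3 or FLX 6 its adjusted p by limma was 0.293 or 0.242, and its call was also lost without any 1 of Ctrl 1, 2, 4, 5 and 6 and PBS 1 and 4 (0.0559 to 0.0741). FLX 3 and FLX 6 are among the 4 mice with fewer counts. With 1 mouse left out, the pooled SD of this gene was 0.673 to 1.17. It was 0.287 to 0.327 for the other gene listed as Ndor1 (ENSMUSG00000006471). How reads were divided between the 2 genes was not tested.

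Over the 28 early response genes, 28 had a positive estimate for PBS minus Ctrl, 16 at an unadjusted p under 0.05 and 1 (Klf6) called, and the median estimate was 0.36 against 0.021 over all genes. For FLX minus PBS, 28 of 28 were negative, 19 at an unadjusted p under 0.05 and 2 (Klf6 and Nr4a1) called, with a median of -0.41 against -0.045. For FLX minus Ctrl, 11 of 28 were positive and 0 were called, which was near the 38.0% of all genes with a positive estimate. The median was -0.043 against -0.024 over all genes. With any single mouse left out, 26 to 28 of the 28 were positive for PBS minus Ctrl, with 1 to 5 called. These genes vary together and are not independent, and the same PBS mice set both comparisons. Cholesterol synthesis genes (12 of 12 positive for PBS minus Ctrl, 8 at an unadjusted p under 0.05) and fasting genes (8 of 8, 6 at that level) pointed the same way with 0 called by limma in each, as against 58.6% of all genes with a positive estimate and 1407 of 12145 at that level. PBS 6 was the extreme PBS mouse of both lists. Without it 11 of 12 and 6 of 8 were positive, against 46.2% of all genes. The medians were then 0.16 in both lists in place of 0.48 and 0.45, and -0.0086 over all genes in place of 0.021. Interferon-induced genes pointed the other way, 16 of 18 with a negative estimate and 0 called by limma. Without Ctrl 6 the negative estimates were 10 of 18, when 55.8% of all genes had a positive estimate.

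By mouse, the distance from the group was also compared over all genes. The median absolute deviation was 0.139 ± 0.0709 (SD, n = 6) in Ctrl, 0.158 ± 0.0442 in PBS and 0.115 ± 0.0193 in FLX. FLX minus PBS was -0.0430 (exact two-sided permutation test, p = 0.0346, Benjamini-Hochberg adjusted p = 0.104 over 3 comparisons). PBS minus Ctrl was 0.0192 (exact permutation p = 0.552, adjusted 0.688) and FLX minus Ctrl -0.0238 (exact permutation p = 0.688, adjusted 0.688), and the smallest p this design allows is 0.00216. These differences turned on single mice. Without Ctrl 3, PBS minus Ctrl was 0.0617 (exact permutation, adjusted p = 0.0195) and FLX minus Ctrl 0.0187. Without PBS 6, PBS minus Ctrl was -0.00672, and FLX minus PBS shrank to -0.0171 (exact permutation p = 0.199, adjusted 0.597). Without PBS 1, FLX minus PBS was -0.0556 (exact permutation, adjusted p = 0.0130).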

How the data were processed

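Right kidneys of 18 mice (3 groups of 6) were sequenced as poly(A) RNA. Per the study's methods the authors used fastp for read cleaning, HISAT-3N for alignment to GRCm38 and StringTie for transcript assembly. The submitters' processing notes name cutadapt 1.9, HISAT2 2.0.4, UMI-tools and StringTie 1.3.4d instead, and which applied could not be settled. The authors deposited FPKM and whole-number estimated counts for 32675 genes per mouse, without pooling. No source used here names the counting tool, and the deposited counts were taken as estimated counts because a value of 4 was more frequent than 3 or 5 in every mouse. No column was left unused.

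FPKM was used on the log2(FPKM + 0.1) scale, on which differences of low genes are understated. Genes with a mean below 1 FPKM were left out, which leaves a gene seen in few mice only if it is high there. The deviation is the value minus the mean of the mouse's own group, the pooled SD has 15 residual degrees of freedom, and a list's mean deviation is the average over its measured genes. Genes were ordered by pooled variance. The 200 of largest variance were clustered by average linkage on 1 minus Pearson's r, with the tree divided at a distance of 0.4. Spread between groups was tested with limma 3.58.1 in R 4.3.3 on absolute deviations from the group mean, multiplied by the root of n/(n - 1), in 1 fit over 18 mice, two-sided, with Benjamini-Hochberg adjustment over 12145 genes and a threshold of 0.05. The distance of a mouse was tested by exact two-sided permutation over mice. The limma step was tested on simulated data. Estimated counts were used for depth and, with edgeR 4.0.16 scaling (TMM or upper quartile, prior count 2), as an alternative scale. Python 3.11.15, numpy 2.4.6, pandas 2.3.3, scipy 1.17.1 and matplotlib 3.10.9 were used.

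Genes named are the 25 of largest variance, the 10 of smallest variance among those with a mean of at least 10 FPKM, the 3 most variable measured members of each gene list, the 5 largest loadings of each sign on 4 principal components, the 5 of smallest adjusted p in each direction of each comparison of spread, and members of clusters. Further members of the lists, Dusp14, Gm15542, Adamts1, Bhlhe40 and Gm14121 among the calls of spread, and the gene pairs correlated were named after their values were seen. The lists cover brown and white fat, red blood cells, neutrophils, early response, tubule injury, clock, glucocorticoid-induced, male-biased and female-biased, interferon-induced, B and plasma cells, T and NK cells, macrophages, skeletal and smooth muscle, adrenal gland, urothelium, collecting duct, thick limb, proximal tubule, podocyte, proliferation, heat shock, cholesterol synthesis, fasting and PPAR-alpha and mitochondrial genome. Genes and lists were chosen with earlier results of these data known. Zic1, Ahsp and Myh2 were not matched to the table, and Cyr61 and Ctgf were matched through the newer symbols Ccn1 and Ccn2. Exon sharing and exonic length were read from the GENCODE annotation of GRCm38, and promoters from RefSeq tables of GRCm38.p6. Alternatives were pseudocounts of 1 and 0.01, limits of 10 FPKM or none, group medians, squared or root mean square deviations, count-based scaling, each mouse left out in turn, the replicate number as a block and, chosen after seeing the data, Ctrl 3 and PBS 6 both left out and genes without shared exons only. A gene of the lists is not reported here by name.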

Additional observations from a re-analysis of the deposited data

Results flagged for a closer look

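In 29 quantities per mouse, each examined in the 3 groups, 14 of 87 groups held a mouse whose gap to the nearest other mouse exceeded Dixon's limit for 6 samples as a share of the group's range. Chance gives such a gap in about 1 of 20 groups. The quantities are not independent (male-biased and proximal tubule lists had r = 0.90 over 18 mice), so that 1 mouse can be counted several times and the count of 14 cannot be set against that rate. PBS 6 supplied 6 of the 14 and Ctrl 3 supplied 4.

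Ctrl 3 had a median absolute deviation of 0.282 log2 units over genes (other Ctrl mice 0.103 to 0.132), a root mean square deviation of 0.429 (0.250 to 0.289), 2.32% of FPKM from ribosomal protein genes (3.55% to 4.14%) and a Spearman's rho of 0.567 between deviation and exonic length over genes (-0.397 to -0.105). PBS 6 had a root mean square deviation of 0.590 (other PBS mice 0.283 to 0.395). Its mean deviation in log2 units was 1.94 for tubule injury genes (-0.80 to -0.01), -1.71 for male-biased genes (0.07 to 0.73), -0.82 for female-biased genes (-0.04 to 0.33, with Cyp4a14 of this list going the other way), -1.22 for proximal tubule genes (0.10 to 0.38) and 0.59 for podocyte genes (-0.23 to -0.01).

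Tubule injury genes also set 1 mouse of each of the other groups apart, FLX 4 at 1.05 (other FLX mice -0.32 to -0.09) and Ctrl 4 at 0.48 (other Ctrl mice -0.23 to 0.01). The same mice were the highest of their groups for urothelium genes, at 3.66 and 2.78, while PBS 6 was at -1.69. Ctrl 6 was low for B and plasma cell genes at -1.11 (-0.05 to 0.46) and for T and NK cell genes at -1.04 (-0.01 to 0.51).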

How the results depend on the processing

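The number of genes with a different spread moved with the processing. For PBS against Ctrl (7 genes) it was 13 with a pseudocount of 1, 4 with group medians, 17 with TMM and 17 with upper-quartile scaling, 752 without a limit on FPKM, 31 without both Ctrl 3 and PBS 6 (chosen after seeing the data) and 6 to 56 with 1 mouse left out, the highest without PBS 3 (56), PBS 2 (54), PBS 5 (33), PBS 6 (27), PBS 1 (21), PBS 4 (16), Ctrl 3 (15), FLX 4 (12), Ctrl 6 (11) and FLX 6 (11). For FLX against PBS (10 genes) it was 17, 3, 21, 25, 791, 41 and 3 to 46 in the same order, and 3 at a limit of 10 FPKM, with PBS 3 (46), PBS 2 (37), PBS 6 (34), PBS 5 (32), Ctrl 3 (18) and FLX 2 (16) raising it and Ctrl 6 (3) and Ctrl 1 (6) lowering it. For FLX against Ctrl (0 genes) it was 1 with a pseudocount of 1, 753 without a limit, 1 without both mice and 0 to 3 with 1 mouse left out (3 without FLX 1, FLX 2, FLX 4 or FLX 6, 2 without FLX 5). Squared deviations gave 0 for both comparisons with PBS. Shared replicate numbers did not pair the mice: same-numbered mice had r from -0.356 to 0.362, above 0.1 in 4 of 18 pairs. With the replicate number as a block the counts were 7 (5 shared), 1 and 6 (4 shared). Over alternatives, 354 of 465 values of called genes stayed past the threshold and 0 changed direction. The distance of PBS minus Ctrl was -0.00672 to 0.0617 with 1 mouse left out, FLX minus Ctrl -0.0362 to 0.0187 (0.0187 without both mice) and FLX minus PBS -0.0556 to -0.0171. The median SD was 0.141 to 0.224 in Ctrl, 0.193 to 0.245 in PBS and 0.160 to 0.176 in FLX with 1 mouse left out, 0.141 in Ctrl without both mice, 0.190 in PBS and 0.139 in FLX with a pseudocount of 1, and 0.135 in FLX at a limit of 10 FPKM. Of the 100 genes of largest variance, 89 to 99 were kept with 1 mouse left out and 23 at 10 FPKM, where fewer genes remain. The cause of the other changes was not tested. The lower depth of FLX 3 to FLX 6 limits low genes in that group.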
